A study of Homo sapiens with 6 samples.

Results

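Gained loci were places where every library of H1 cells with a hairpin against HNRNPU had an ATAC-seq summit and the control libraries had none nearby. They were chosen by the deposited summits themselves. The summits of all 6 libraries were pooled and taken in order of their score percentile within their own list, and each one absorbed the summits within 250 bp to form a locus. A locus was kept when all 4 shHNRNPU libraries placed a summit 250 bp or less from its centre and no shLUC summit lay within 1000 bp. Of 123131 loci in all, 30207 were held by all 4 shHNRNPU libraries, and 724 of these met the rule, which is 2.4%. Another 360 had no shLUC summit within 250 bp but did have one between 250 and 1000 bp away, and were left out. Leaving out a library loosens the rule and raised the count, to 1052 to 1415 without one of the shHNRNPU libraries and to 1991 or 2025 without a shLUC library. With a match distance of 100 bp, 295 loci were left. Since the rule used presence with shHNRNPU and absence with shLUC, that contrast is given as a description with no test.

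H1 is an established line of human embryonic stem cells, here grown in mTeSR1 medium on Matrigel. The cells received lentivirus made in 293T cells and were selected with puromycin, and this holds for the control cells as well. There were 2 libraries each for shHNRNPU #1, shHNRNPU #2 and the luciferase hairpin shLUC, with no untransduced cells. The labels tell repeats apart by number only, so the spread between libraries may be technical. The lists ran from 52168 to 63519 summits. They carry no read depth, so absence means that the caller reported no summit. The files do not measure HNRNPU itself, so the extent of knockdown is not known from them. The pluripotency genes POU5F1, SOX2 and NANOG each had a summit within 2000 bp of a gene end in 6 of 6 libraries. SOX2 had 1, 2, 1 and 2 such summits with shHNRNPU and 3 and 3 with shLUC, and NANOG 2, 2, 1 and 1 against 3 and 3, so both had fewer in every shHNRNPU library. POU5F1 had 1, 2, 1 and 1 against 1 and 1.

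ATAC-seq uses a transposase that inserts into accessible DNA, so that summits mark promoters, enhancers and other sites where nucleosomes are displaced. HNRNPU, also called SAF-A, is an abundant nuclear protein that binds RNA and scaffold-attached DNA and is known for roles in splicing and in the organisation of chromatin. In pluripotent cells many steadily open sites are promoters of housekeeping genes, while enhancers of lineage genes are often closed or weakly open.

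The promoter sequences of gained loci are shown first, because here the DNA under the summits can be read directly. Of the 724 loci, 26 had their centre in a RefSeq promoter window, which runs from 250 bases upstream of an annotated start to 50 bases downstream, and 23 of these 26 were in the window of a protein-coding gene. The 7 lines below are the protein-coding promoters with the centre upstream of the start that ranked highest by the lowest of the 4 score percentiles. Each gives the 250 bases upstream, 5′ to 3′ on the gene's strand, from RefSeq for GRCh38.p14, with the 21 bases at the locus centre in capitals. They belong to FGF11, an intracellular member of the fibroblast growth factor family, at chr17:7440518-7440767 on the plus strand. USP54 follows, at chr10:73601622-73601871 on the minus strand. KLF2, a Krüppel-like transcription factor of naive pluripotency, is at chr19:16324576-16324825, plus strand. IL23A, the p19 subunit of interleukin 23, is at chr12:56338634-56338883, plus strand. LOC122455340 is at chr12:53241650-53241899, plus strand. CDC42EP1, an effector of the small GTPase CDC42, is at chr22:37560230-37560479, plus strand. HOXD10, a posterior HOX gene, is at chr2:176116528-176116777, plus strand.
FGF11: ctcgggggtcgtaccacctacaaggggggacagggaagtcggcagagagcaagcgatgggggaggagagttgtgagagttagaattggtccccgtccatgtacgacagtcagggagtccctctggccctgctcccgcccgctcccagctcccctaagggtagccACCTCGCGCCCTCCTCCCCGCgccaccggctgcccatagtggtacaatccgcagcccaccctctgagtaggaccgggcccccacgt
USP54: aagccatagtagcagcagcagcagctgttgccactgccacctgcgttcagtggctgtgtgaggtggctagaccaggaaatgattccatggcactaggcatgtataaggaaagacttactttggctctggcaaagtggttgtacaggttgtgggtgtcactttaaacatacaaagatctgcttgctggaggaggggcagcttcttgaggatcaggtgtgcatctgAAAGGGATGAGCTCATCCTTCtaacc
KLF2: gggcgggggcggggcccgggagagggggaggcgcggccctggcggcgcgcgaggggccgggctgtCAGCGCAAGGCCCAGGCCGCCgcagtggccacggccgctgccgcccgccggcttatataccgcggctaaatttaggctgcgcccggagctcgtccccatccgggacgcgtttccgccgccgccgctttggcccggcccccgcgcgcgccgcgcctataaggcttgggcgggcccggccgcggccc
IL23A: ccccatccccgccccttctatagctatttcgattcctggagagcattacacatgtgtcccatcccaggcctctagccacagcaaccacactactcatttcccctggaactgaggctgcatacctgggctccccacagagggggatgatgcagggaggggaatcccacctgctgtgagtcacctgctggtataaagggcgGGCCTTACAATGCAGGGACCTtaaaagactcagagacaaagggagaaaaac
LOC122455340: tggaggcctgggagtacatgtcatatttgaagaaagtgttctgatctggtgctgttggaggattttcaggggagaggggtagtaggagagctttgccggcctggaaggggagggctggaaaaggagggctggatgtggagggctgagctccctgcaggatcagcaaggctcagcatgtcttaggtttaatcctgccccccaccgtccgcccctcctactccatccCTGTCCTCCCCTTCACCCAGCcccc
CDC42EP1: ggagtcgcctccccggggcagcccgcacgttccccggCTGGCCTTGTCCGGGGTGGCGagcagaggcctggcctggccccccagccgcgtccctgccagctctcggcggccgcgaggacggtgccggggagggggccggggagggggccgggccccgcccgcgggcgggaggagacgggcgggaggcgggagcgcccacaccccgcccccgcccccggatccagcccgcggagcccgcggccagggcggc
HOXD10: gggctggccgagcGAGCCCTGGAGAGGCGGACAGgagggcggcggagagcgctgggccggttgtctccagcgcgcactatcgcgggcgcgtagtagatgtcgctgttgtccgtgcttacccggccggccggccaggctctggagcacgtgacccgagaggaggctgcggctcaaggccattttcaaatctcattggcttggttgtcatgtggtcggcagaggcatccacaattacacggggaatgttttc

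The locus centre lay 76 bases upstream of the start at FGF11, 16 at USP54, 175 at KLF2, 41 at IL23A, 15 at LOC122455340, 203 at CDC42EP1 and 227 at HOXD10. At FGF11 and USP54 the window belongs to a start inside the gene, since these loci lay in the gene body, 2394 and 24344 bp from the nearest gene end. The other 5 lay outside the gene they are named by. The KLF2 locus lay in the body of the lncRNA gene KLF2-DT, 19 bp from its start and so nearer to it than to KLF2. A shLUC summit stood 1378 bp from the KLF2 locus and 1445 bp from the CDC42EP1 locus, not far beyond the 1000 bp limit. The lowest of the 4 percentiles fell from 48.1 at FGF11 to 21.5 at CDC42EP1 and 20.1 at HOXD10. Base composition differed widely among them. The KLF2 and CDC42EP1 stretches were 80.0% and 84.0% G and C with 41 and 33 CpG, whereas USP54 had 50.0% and a single CpG. FGF11 scored 9.48 and 7.10 in the shHNRNPU #1 libraries and 7.84 and 10.8 in the shHNRNPU #2 libraries, where scores are −log10 q-values from the peak calls of that library. KLF2 scored 6.31, 8.08, 7.36 and 6.16 in the same order, so the hairpins overlapped at both promoters. HOXD10 scored 7.89, 14.1, 10.6 and 4.17, and its weakest library was shHNRNPU #2 repeat 2.

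The 26 loci lay in 28 windows of 27 genes, and these windows were searched for 8 short motifs on both strands. The windows of KLF2 and KLF2-DT overlap and share a locus, as do the windows of RAD51C. The windows are thus not all independent, which the intervals ignore. The AP-1-like motif TGANTCA takes any base in the middle and reads the same on both strands. It was in 7 of 28 windows (25.0%, 95% Wilson interval 12.7% to 43.4%). The same motif was in 15 of 135 windows with a locus of any other 4 libraries (11.1%, 6.85% to 17.5%), in 3.68% of the 9904 windows with a locus held by all 4 shHNRNPU libraries and in 7.71% of all 35116 windows. The intervals of the first and second share overlap, and this motif was singled out of the 8 after the shares were seen. Its 9 sites lay 14 to 132 bp from the locus centre, 8 of them within 100 bp. The windows were chosen for holding the centre, so any site in them lies near it, and nothing is read from these distances. The sites that lie wholly upstream of a start are shown with 10 bases on either side and the motif in capitals. They are from ARGLU1-DT (a first site at chr13:106617683-106617709 and a second at chr13:106617730-106617756, plus strand), BAIAP2 (chr17:81097498-81097524 and chr17:81097532-81097558, plus strand), IL23A (chr12:56338797-56338823, plus strand), SLC13A4 (chr7:135728323-135728349, minus strand), BFSP1 (chr20:17558856-17558882, minus strand) and SCHIP1 (chr3:159852984-159853010, plus strand). The loci at BAIAP2, BFSP1 and SCHIP1 were likewise at starts inside the gene body. The middle base was A at SCHIP1, T at the first ARGLU1-DT site and G or C at the other sites shown.
ARGLU1-DT first site: ctttcaatgaTGATTCAcagccctgag
BAIAP2 first site: ccacccacgcTGAGTCAgagctgtagg
ARGLU1-DT second site: atgcctccagTGACTCAgccagagcca
IL23A: ccacctgctgTGAGTCAcctgctggta
SLC13A4: ggagagaaatTGACTCAttcttttcaa
BFSP1: cttgagccagTGAGTCActtcctctct
BAIAP2 second site: gccgcgaggcTGAGTCAggcaggggag
SCHIP1: aacgcggagtTGAATCAgctggctgaa

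The remaining motifs gave no clearer separation from the windows with a locus of any other 4 libraries. The GC box GGGCGG was in 67.9% of windows with a gained locus and 50.4% of those with a locus of any other 4 libraries. CCAAT was in 42.9% against 34.1%, and the ETS motif CCGGAAG in 1 of 28 windows against 12 of 135. TATAAA was in 10.7% and 8.89%, CACGTG in 14.3% and 11.1%, TGACGTCA in 7.14% and 3.70%, and the octamer ATTTGCAT in 3.57% and 2.96%. The 2 gained windows with TGACGTCA are overlapping windows of RAD51C that hold the same site. For all 7 of these the Wilson intervals overlap in this comparison. Beside the 9904 windows with a locus held by all 4 shHNRNPU libraries, CCGGAAG was lower without overlap. It was in 3.57% (0.633% to 17.7%) of windows with a gained locus and in 22.1% (21.2% to 22.9%) of those. Median G and C content was 58.8% in the windows with a gained locus, 57.3% in those with a locus of any other 4 libraries and 66.7% in those held by all 4 shHNRNPU libraries.

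Most gained loci lay away from promoters. A protein-coding gene body held 342 of the 724 (47.2%, Wilson interval 43.6% to 50.9%), and 101 (14.0%, 11.6% to 16.7%) were no farther than 2000 bp from a protein-coding gene's start or end. Within 1000 bp of a protein-coding start there were 44 loci, 20 of them upstream of the start and 24 downstream. A further 123 (17.0%) were in or beside a lncRNA gene without being near a protein-coding one, and 199 (27.5%) had no gene of any class within 2000 bp. Of all 123131 loci these shares were 12.2% and 27.1%. Of the 30207 loci held by all 4 shHNRNPU libraries they were 10.4% and 20.8%. The intervals here and elsewhere cover counting error only.

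The closest set for comparison was the 5527 loci that any other 4 libraries held and the other 2 lacked by the same distance. Gene bodies took an equal share of both, 47.2% of each set. Gene ends did not. Within 2000 bp of a protein-coding gene end lay 14.0% of gained loci and 8.52% of the others (7.81% to 9.29%), and within 1000 bp of a start 6.08% and 3.46%. More than 50 kb from every protein-coding gene end lay 30.5% of gained loci, 42.0% of the others and 57.4% of the 1875 clear lost loci. Clear lost loci were held by both shLUC libraries, with no shHNRNPU summit within 1000 bp. That rule asks for presence in 2 libraries and not 4, so gained and lost loci are not compared like for like. The loci held by all 6 libraries were far more promoter-bound, with 40.7% near gene ends. The order depends on the absence rule. When loci of any other 4 libraries were taken with no condition on nearby summits, 21.7% of the 9381 were near gene ends, which is above the share of gained loci. The gained share was also below that of all 123131 loci (20.8%) and of the 30207 held by all 4 shHNRNPU libraries (38.4%). Within 1000 bp of a start these 2 sets had 14.5% and 30.8%, again above the gained loci. In gene bodies they had 49.2% and 44.3%, and more than 50 kb from every protein-coding gene end 36.7% and 24.2%.

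**Figure D1:**
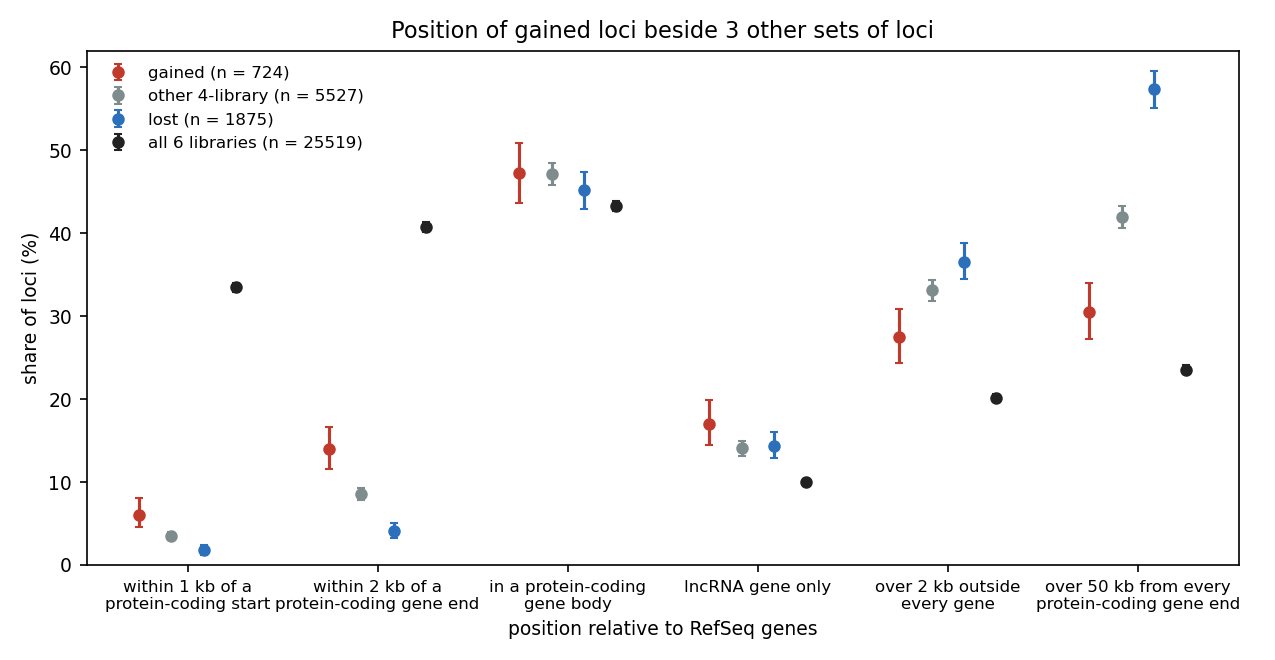
Share of loci (%) in 6 positions relative to RefSeq genes for gained loci, loci of any other 4 libraries, lost loci and loci held by all 6 libraries, with points for shares and bars for 95% Wilson intervals. Gained loci lie between the loci of other 4 libraries and those of all 6 libraries near starts and gene ends, at 14.0% against 8.52% and 40.7% for ends.

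Gained loci also lay in more gene-dense surroundings than loci of any other 4 libraries. The median number of protein-coding genes within 500 kb was 8 at gained loci, 6 at loci of any other 4 libraries, 4 at lost loci and 9 at loci of all 6 libraries. It was also 8 at the loci held by all 4 shHNRNPU libraries, and 7 over all loci. Lost loci needed presence in only 2 libraries. When the loci held by all 4 shHNRNPU libraries were split into quartiles of density, the most gene-dense one, with 17 to 76 genes, held 25.6% of gained loci and 14.5% of loci of any other 4 libraries. The least dense quartile, with 0 to 4 genes, held 28.5% and 39.5%. Relative to the loci held by all 4 shHNRNPU libraries, however, the share that was gained varied little with density, from 2.09% to 2.61% over the 4 quartiles with overlapping intervals. Host genes were shorter as well. The median length of the protein-coding host was 88114.5 bp for gained loci and 152061 bp for loci of any other 4 libraries, and 35 of 342 gained loci in gene bodies (10.2%) lay in genes over 500 kb against 16.7%.

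By chromosome, gained loci were spread over all autosomes and X. Chromosome 22 had the highest gained share, 22 of its 561 loci held by all 4 shHNRNPU libraries (3.92%, 2.60% to 5.87%), and chromosome 18 the lowest among the autosomes at 8 of 571 (1.40%, 0.712% to 2.74%). The gene-dense chromosome 19 held 5.39% of gained loci and 2.97% of the loci of any other 4 libraries, chromosome 17 held 5.52% and 3.73%, and chromosome 22 held 3.04% and 1.19%. Chromosome 4 went the other way, with 3.73% and 6.15%. Relative to the loci held by all 4 shHNRNPU libraries the gained share was 2.56% (1.88% to 3.48%) on chromosome 19, 2.85% (2.10% to 3.86%) on 17 and 1.92% (1.32% to 2.78%) on 4, all with intervals that include 2.4%. On Y, 0 of 27 loci were gained, which allows a share of up to 11.1%.

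**Figure D2:**
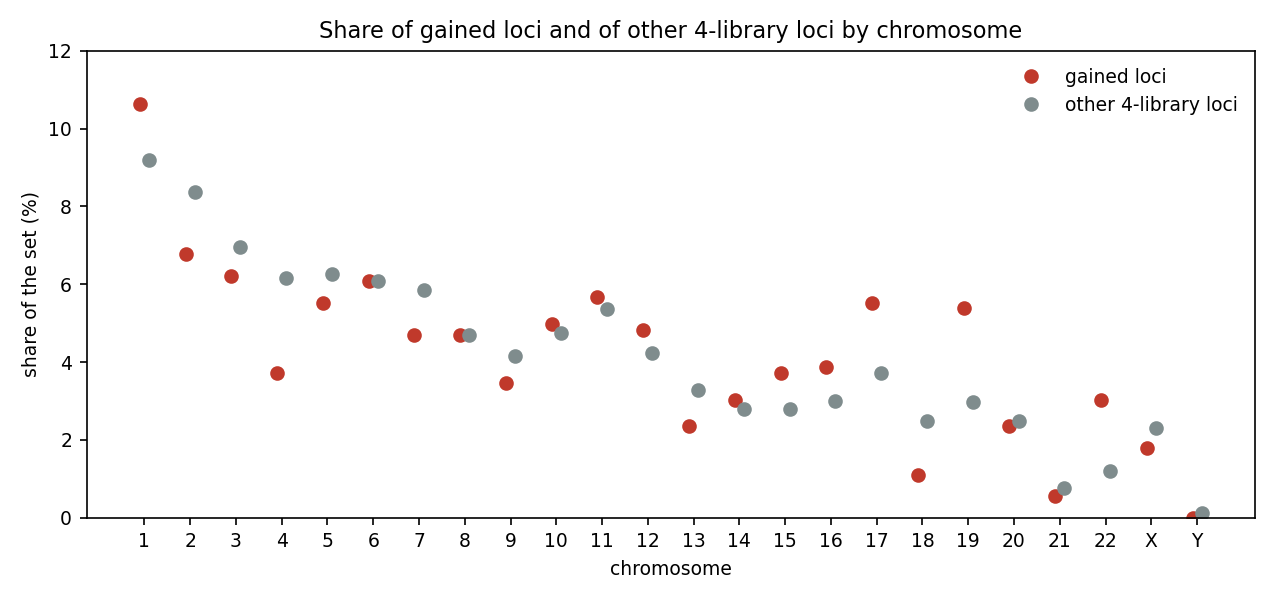
Share of gained loci and of loci of any other 4 libraries (%) on each chromosome. Chromosomes 17, 19 and 22 take a larger share of gained loci, 5.39% against 2.97% for chromosome 19, and chromosome 4 a smaller one, although as a share of the loci held by all 4 shHNRNPU libraries chromosomes 4, 17 and 19 have intervals that include 2.4%.

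Gained loci were weak sites in the libraries that held them. Their median score was 5.53 and 5.49 in the shHNRNPU #1 libraries and 4.90 and 5.47 in the shHNRNPU #2 libraries. In percentiles of each library's own list the medians were 35.0, 37.6, 34.1 and 31.1, where 50 is the middle of the list. Loci of any other 4 libraries had medians of 32.8, 36.7, 35.2 and 31.8 in the same libraries, and loci of all 6 libraries were between 72.8 and 77.5. By score, gained loci sat at the level of other partly shared loci. Only 19 of the 724 (2.62%) were above the median of all 4 lists, and 532 (73.5%) fell below the 25th percentile of at least 1 list.

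**Figure D3:**
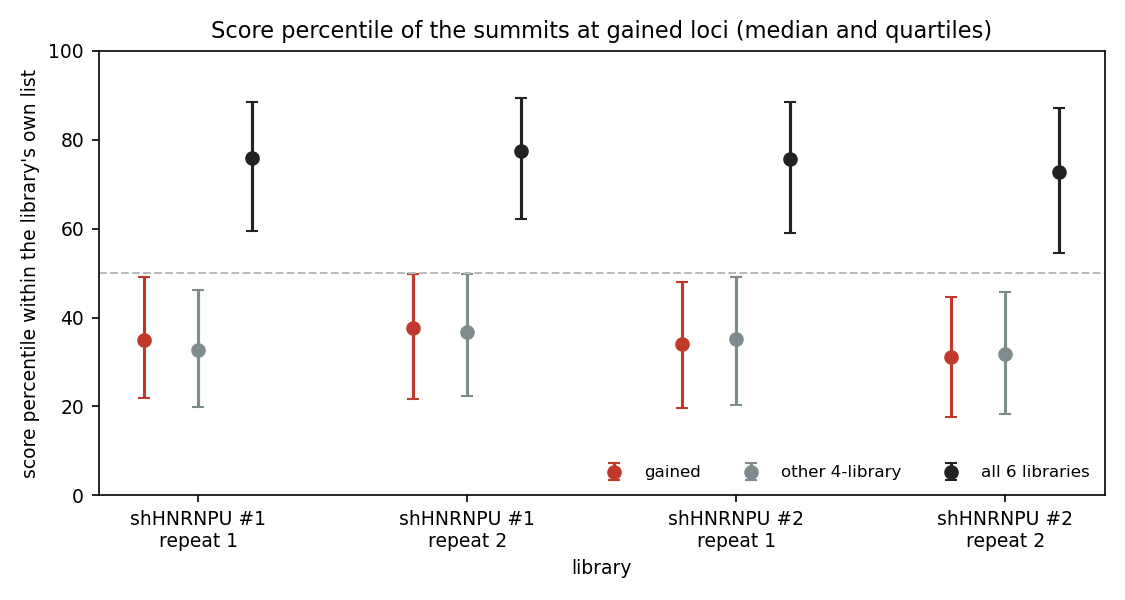
Score percentile within each shHNRNPU library's own list (points are medians, bars are quartiles) for gained loci, loci of any other 4 libraries and loci held by all 6. Gained loci have medians from 31.1 to 37.6, beside the other 4-library loci and far below the loci of all 6 libraries.

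The mean percentile was higher with shHNRNPU #1 at 412 loci (56.9%). Both shHNRNPU #1 libraries were above both shHNRNPU #2 libraries at 165 loci, and the reverse held at 94, so at most loci the hairpins overlapped. The 4 summits of a locus spanned a median of 135 bp, against 115 bp at loci of any other 4 libraries. The nearest shLUC summit was a median of 8506.5 bp away, with a range of 1001 to 121058 bp. At 83 loci (11.5%) a shLUC summit lay within 2000 bp, so that these were gains beside a site that was open in the control, and 413 loci (57.0%) had one within 10000 bp.

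The 10 strongest gained loci by their lowest percentile are described next. The first lay on chromosome 10 at 64120794, outside protein-coding genes and 495666 bp from the end of REEP3, in the body of the lncRNA gene LOC124902439. Its scores were 15.3, 16.1, 16.6 and 20.9, in the order shHNRNPU #1 repeats 1 and 2 and shHNRNPU #2 repeats 1 and 2, which is used throughout. The lowest of its 4 percentiles was 73.8, and the nearest shLUC summit was 3793 bp away. The second was in the body of PHC2, a component of the polycomb repressive complex PRC1, at 33342375 on chromosome 1, with scores of 13.1, 14.6, 12.5 and 17.6. Its nearest shLUC summit was 7358 bp away.

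The third, at 82774962 on chromosome 9, lay 204628 bp from RASEF, a RAB-family GTPase gene, and scored 14.5, 13.6, 17.9 and 13.9. A shLUC summit stood 1181 bp from it, so it was close to the limit of the rule. The fourth, at 6321435 on chromosome 20, was 198405 bp from FERMT1, which encodes kindlin-1, an activator of integrins. It scored 19.7, 11.8, 13.8 and 13.6 and its 4 summits spanned just 7 bp. No shLUC summit was closer than 51737 bp. The fifth was in TFPI, the inhibitor of the tissue factor pathway of coagulation, and in the overlapping lncRNA gene CALCRL-AS1, at 187519824 on chromosome 2. It scored 16.6, 21.4, 21.2 and 12.1, the highest of these loci in shHNRNPU #1 repeat 2 and in shHNRNPU #2 repeat 1.

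CDC6, which loads the replicative helicase at origins, held a locus with scores of 18.4, 11.8, 9.66 and 13.2. MLXIPL, which encodes the glucose-responsive factor ChREBP, held a locus with 13.0, 10.6, 10.2 and 15.7. One locus 279290 bp from CTNNB1, the gene of β-catenin, scored 12.3, 9.20, 15.7 and 16.4. The body of PCID2, an mRNA export factor gene, held a locus with 11.5, 10.2, 8.19 and 12.4, nearest to the end of PROZ. CSMD1, a very long gene for a complement-regulating membrane protein, held the last at 15.6, 8.97, 11.6 and 12.3. The scores of the hairpins overlapped at all of these 10 loci except those nearest to REEP3 and CTNNB1, where both shHNRNPU #2 libraries were higher. Of the 10, 6 were in a protein-coding gene body and none was within 2000 bp of a protein-coding gene end.

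**Figure D4:**
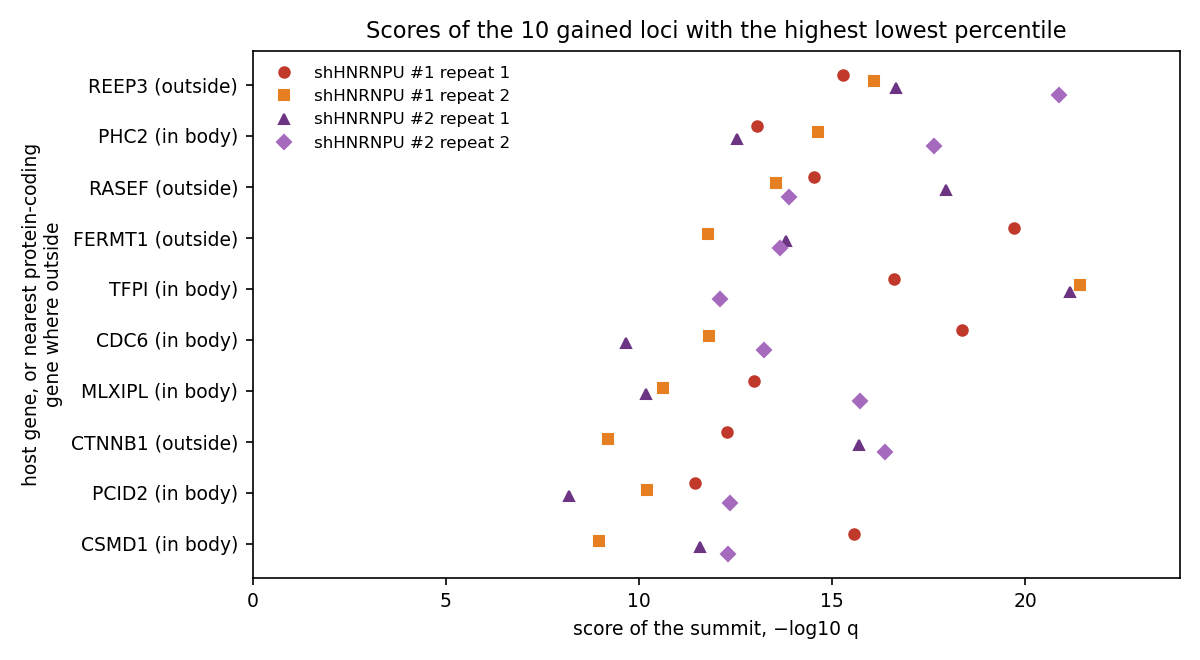
Scores (−log10 q) of the 10 gained loci with the highest lowest percentile in the 4 shHNRNPU libraries, 1 point for each library. Scores range from 8.19 at PCID2 to 21.4 at TFPI, and both shHNRNPU #2 libraries are above both shHNRNPU #1 libraries only at the loci nearest to REEP3 and CTNNB1.

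The 5 gained loci just inside the distance limit had a shLUC summit 1001 to 1035 bp away. They were beside the glutamine tRNA gene TRQ-CTG6-1, and in or at MUC12, ARID4A, ANKRD36C and PTK7. The locus beside TRQ-CTG6-1 scored 8.31, 5.99, 4.97 and 6.59, and the one in ANKRD36C 3.69, 4.20, 2.43 and 4.25. Their lowest percentiles were 34.8 and 5.57, and those of the other 3 were 28.8 at MUC12, 1.81 at ARID4A and 5.80 at PTK7. The 5 just outside had a shLUC summit 928 to 986 bp away, and their nearest protein-coding ends were those of SKOR1, INO80E, ZNF429, MAP4K4 and PTCH1. The locus at ZNF429 scored 8.92, 8.34, 5.36 and 9.94.

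In all, 412 of 20037 protein-coding genes (2.06%) had a gained locus in the body or within 2000 bp of an end, from 389 loci. Of 18303 lncRNA genes, 191 did, from 178 loci. Pseudogenes accounted for 16 loci, miRNA genes for 3 and tRNA genes for 1. None of 1199 snoRNA and 154 snRNA genes had one. The share of all loci at each of these classes was not computed, so nothing is read from these counts. Recurrence within a gene was rare, with 14 protein-coding genes holding 2 or more loci and none of those with recurrence holding over 2.

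The recurrent genes differed widely in length. Among the shorter, TFPI held a second, much weaker locus 18936 bp from the first, with scores of 6.42, 3.47, 3.72 and 2.04. TFPI had 4, 4, 3 and 3 summits in the shHNRNPU libraries and 1 and 2 in the shLUC libraries, which includes the summits that chose the loci. MED27, a subunit of the Mediator complex, held a locus 6 bp from its annotated start with scores of 11.0, 8.21, 8.19 and 11.1. Its second locus, 113723 bp away in the gene body, scored 2.82, 6.58, 6.19 and 4.92, so the start was the stronger site in 4 of 4 libraries.

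CUX1, a homeodomain factor gene, held loci at 102190835 and 102279735 on chromosome 7. The latter scored 5.30, 7.04, 10.8 and 7.24 and the former 6.70, 3.43, 3.04 and 3.42. Over the whole gene, summits numbered 22, 25, 16 and 18 with shHNRNPU and 13 and 11 with shLUC. The lncRNA gene LOC100630923, in the same megabase, held another pair, with scores of 10.7, 10.1, 4.52 and 9.76 at the first and 6.07, 5.18, 3.68 and 8.69 at the second. TMTC4 held 2 loci 29048 bp apart, with 4, 4, 3 and 3 summits in the gene with shHNRNPU and 1 and 1 with shLUC. SMIM35 had 3, 2, 3 and 3 summits against 1 and 1. The rule itself puts 2 summits of each shHNRNPU library and none of shLUC in such a gene, so these counts are given as descriptions and nothing is read from their separation.

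In the very long genes the gained loci were a few among many sites. RBFOX1, a neuronal splicing factor gene of 2473620 bp, held 2 gained loci, of which the one at 5750580 on chromosome 16 was the farthest from a shLUC summit, at 121058 bp. Yet RBFOX1 had 41, 43, 32 and 32 summits with shHNRNPU and 39 and 42 with shLUC. DAB1, an adaptor gene of the reelin pathway, had 37, 39, 34 and 28 against 38 and 39, and CSMD1 30, 36, 34 and 21 against 26 and 31. Over these 3 genes as wholes the counts of the groups overlap. FAT3, an atypical cadherin gene, held 2 loci 612087 bp apart, with 18, 20, 15 and 16 summits against 14 and 17. Other genes with a pair were RBMS3, SND1, FAM120B, GATA4, PCDHA1 and the lncRNA genes CARINH and LOC105373024.

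Lists of genes for lineages, pathways and nuclear structure were read against the 2.06% of all protein-coding genes and against the 2.4% of loci. Of the 14 lists the endoderm list had the highest share of genes, with 3 of 17 holding 4 gained loci out of 28 held by all 4 shHNRNPU libraries (14.3%, 5.70% to 31.5%), and 0 loci of any other 4 libraries. GATA4, a zinc finger factor of cardiac and endodermal development, held a pair 6487 bp apart, the closest pair of all. The one nearer the gene end scored 3.20, 9.24, 5.69 and 4.84 and the other 3.15, 6.18, 2.36 and 2.44. Next to FOXA2, a pioneer factor of definitive endoderm, a locus 1532 bp from a gene end scored 3.10, 5.41, 4.10 and 5.68. The nearest shLUC summit was 1229 and 4864 bp from the GATA4 loci, in the same order, and 2135 bp from the FOXA2 locus. AFP, the fetal serum protein of yolk sac and liver, held one with 6.29, 5.78, 2.31 and 6.82, with a shLUC summit 1055 bp away. All 4 were below the 25th percentile of at least 1 list.

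Of the trophoblast and amnion list 2 of 16 genes had a locus. GATA3 scored 4.89, 5.93, 1.89 and 2.72, and TP63, which encodes the epithelial factor p63, scored 5.54, 3.29, 3.69 and 7.81. The naive pluripotency list had KLF2 alone of 18 genes, by the locus that lay nearer to the start of KLF2-DT. The neuroectoderm list had SIX3, a forebrain and eye factor, alone of 24, with scores of 7.26, 4.27, 4.46 and 8.25. The mesoderm list and the list of core and primed pluripotency genes had none, of 23 and 25 genes. At the latter 0 of 38 loci were gained, which allows up to 7.89%. With so few loci a list, these counts are descriptions.

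In the signalling and p53 lists 1.52% to 3.77% of loci were gained. The WNT list had 4 of 75 genes and 4 of 118 loci. They were WNT3A, RSPO3, which amplifies WNT signals, the effector CTNNB1 and the repressor TCF7L1. RSPO3 scored 2.61, 4.80, 6.22 and 4.17 and CTNNB1 3.49, 5.86, 5.25 and 4.75. The locus of WNT3A was near the floor of shHNRNPU #2 repeat 1, at 1.45. In the FGF list, FGF9 held one of the stronger loci, with 6.58, 6.93, 6.75 and 7.48, all 4 values close together, and FGF1 a weak one. FGF11, whose gained locus was shown above, is not on that list.

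The chromatin remodelling and DNA methylation list had CHD5 and TET3 of 36 genes. TET3, an oxidase of 5-methylcytosine, scored 7.91, 4.26, 3.47 and 3.17. CHD5 had 8, 7, 5 and 6 summits with shHNRNPU and 2 and 5 with shLUC, which meet at 5. The polycomb list had PHC2 of 31 genes, and the lists for TGF beta signalling and the p53 response had SMAD7 and AEN. The nuclear matrix, lamina and cohesin list had 0 of 31 genes and 0 of 57 loci, which allows a share of up to 5.26%. The list of long neuronal and adhesion genes had 7 of 62, with 10 gained of 370 loci (2.70%). The list held 1.38% of gained loci, 1.95% of loci of any other 4 libraries and 65 of the 1875 lost loci. The rule for lost loci asks for presence in only 2 libraries and keeps more loci. LRP1B, a member of the list, had 20, 18, 14 and 8 summits against 24 and 20, which meet at 20. CSMD2, another member, had 12, 14, 12 and 13 against 11 and 12.

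Gene classes defined by symbol differed more. Zinc finger genes held 620 loci of all 4 shHNRNPU libraries and only 1 gained locus, at ZNF665 (0.161%, 0.0285% to 0.908%). As a share of each set, zinc finger genes held 0.138% of gained loci and 0.724% of loci of any other 4 libraries (40 of 5527). Ribosomal protein genes had 0 of 120 loci, which allows up to 2.50%, collagen genes 0 of 71 (up to 4.23%), histone genes 0 of 48 (up to 6.25%) and olfactory receptor genes 0 of 11 (up to 27.3%). At clustered protocadherin genes, which encode neuronal adhesion molecules from tandem first exons, 3 of 26 loci were gained (11.5%, 4.00% to 29.0%). Their 9 genes share these 3 loci, since the gene models overlap. Solute carrier genes had 7 of 438 (1.60%). The HOX class had 1 of 17, the locus at the HOXD10 promoter, which is also within 2000 bp of HOXD11.

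Gained loci were mostly solitary. The median distance to the next gained locus was 875696 bp. Another lay within 100 kb of 79 (10.9%, 8.84% to 13.4%), while 7.06% (6.41% to 7.76%) of loci of any other 4 libraries, 8.66% of loci of all 6 and 4.69% of lost loci had a gained locus that near. The share of gained loci was 7.65% with scores of at least 5, 5.42% when summits had to match within 100 bp, and 20.7% and 25.2% without shLUC repeats 1 and 2, so it depends on how many loci the rule keeps. Within 10 kb there were 4 (0.552%), no more than the 0.977% for loci of any other 4 libraries. Linked at gaps of up to 100 kb, 645 stood alone, 38 groups were pairs and 1 was a triple.

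**Figure D5:**
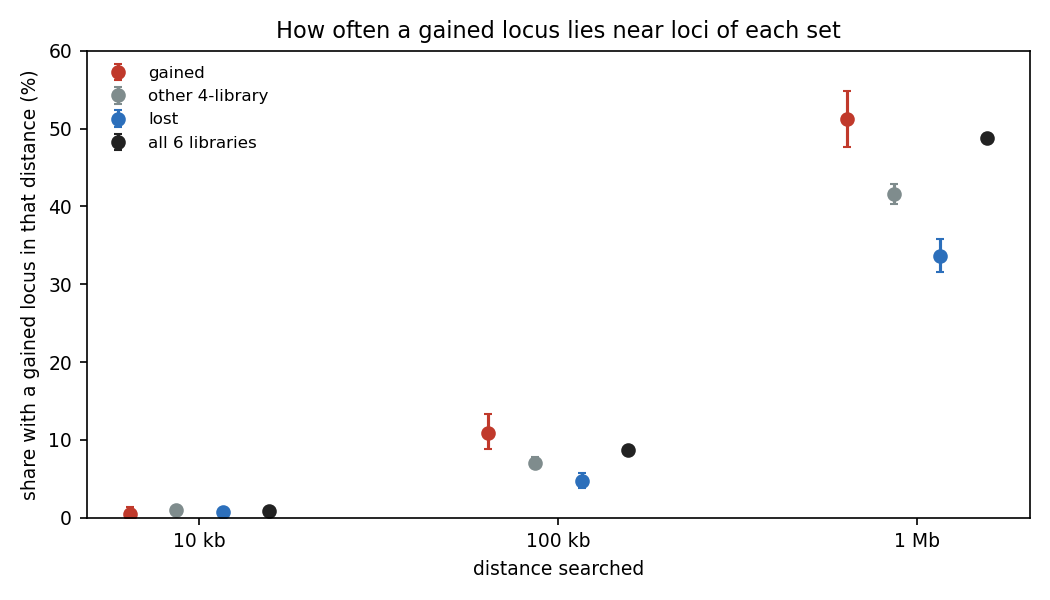
Share of loci (%) of each set that have another gained locus within 10 kb, 100 kb or 1 Mb, with 95% Wilson intervals. At 100 kb gained loci are at 10.9%, beside 7.06% for loci of any other 4 libraries and 8.66% for loci of all 6 libraries, and at 10 kb the sets overlap. The 100 kb share of gained loci ranges from 5.42% to 25.2% over other settings of the rule.

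The triple covered 102968 bp of chromosome 11, from 118053553 to 118156520. Its first locus was in SMIM35 with scores of 4.45, 7.02, 4.75 and 9.37, and its second in the same gene with 3.21, 3.32, 7.84 and 4.35. The last, 3697 bp from the sodium channel subunit gene SCN4B, scored 5.16, 3.69, 3.54 and 2.63. The stretch also held 1 lost locus and 1 locus of all 6 libraries. Summits there numbered 6, 5, 5 and 6 with shHNRNPU and 5 and 4 with shLUC, so the total number barely differed.

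In fixed windows of 1 Mb, 476 held 1 gained locus, 98 held 2, 13 held 3, 2 held 4 and 1 held 5. The window with 5 was on chromosome 1 from 6000001 to 7000000, with 34 loci held by all 4 shHNRNPU libraries (14.7% gained) and 20 protein-coding genes. Its hosts included CHD5, the transcriptional repressor gene HES3, the espin gene ESPN and PLEKHG5. The windows with 4 were that of CUX1, where 20.0% of 20 loci were gained, and one on chromosome 22 from 37000001 with CDC42EP1, CYTH4, SH3BP1 and 31 protein-coding genes. Among windows with 3, the highest gained shares were 30.0% of 10 loci around RANBP17 on chromosome 5 and 25.0% of 12 loci on chromosome 22 from 27000001, where no gained locus was at a protein-coding gene.

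Between 1 and 10 kb from them, and per 10000 summits of each list, there were 98.4, 93.5, 89.7 and 96.2 summits with shHNRNPU and 85.7 and 89.5 with shLUC. The means were 94.5 ± 3.74 (SD, n = 4) and 87.6 ± 2.65 (SD, n = 2), with the closest libraries at 89.7 and 89.5. Unscaled, the counts overlap, at 581, 594, 524 and 502 with shHNRNPU and 533 and 549 with shLUC. The difference of 6.88 per 10000 was 3.55 with lists of one size and 3.41 with scores of at least 5. The ratio of the means was 1.08. It was 1.12 around loci of any other 4 libraries, 1.16 around loci of all 6 and 1.09 around lost loci, so a ratio above 1 at this distance was common to all 4 sets. Between 10 and 100 kb the values were 717 ± 18.2 (SD, n = 4) and 660 ± 7.32 (SD, n = 2), a ratio of 1.09, where the other 3 sets had 1.04, 0.971 and 1.01. The unscaled counts overlap at this distance too, at 4295, 4508, 4065 and 3843 with shHNRNPU and 4070 and 4080 with shLUC. These surroundings belong to the same contrast as the rule and were not tested.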

How the data were processed

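The authors deposited 1 list of 1 bp summits per library, with a score that, judged by the layout and values, is a −log10 q-value from the peak caller. The submitters' processing notes name cutadapt, Bowtie2, SAMtools, MACS2, deepTools and the build hg38, with versions not given in the sources used here. Peaks were called for each library alone and scores were not normalized between libraries. Groups came from the sample titles. The article supplied with the series describes another experiment in mouse cells, so it guided only the style.

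Summits on chromosomes 1 to 22, X and Y were grouped into loci as described above. Positions were read against the RefSeq gene table of GRCh38.p14, with 20037 protein-coding genes among 59679, and against 35116 promoter windows, all of which matched a gene of the table by ID. An end is either end of a gene, and gene density is the number of protein-coding gene midpoints within 500 kb. Loci of any other 4 libraries had a summit within 250 bp in exactly 4 libraries and none within 1000 bp in the other 2. That distance was added after the shares were seen, because without it the comparison set holds loci beside shared promoters that the rule bars from the gained set.

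Named loci were the 10 with the highest lowest percentile, genes with at least 2 loci, the triple, the 5 fullest windows, members of the fixed gene lists and the 5 loci on either side of the absence limit. Promoters and stretches with sequence were those of loci in promoter windows. No genome sequence was used here, so loci elsewhere are given by position only. The rule, gene lists and named groups were chosen with earlier results of these data known. No test was run, because the rule used the contrast between shHNRNPU and shLUC, and shares have 95% Wilson intervals for counting error. The limit given for a count of 0 is instead 3 divided by the number of loci. It differs from the Wilson bound, which for ribosomal protein genes is 3.10% and not 2.50%. The code of the rule was run on simulated summits and recovered 900 of 900 loci simulated as gained. Those summits were placed close together at well separated loci, so recovery followed from the settings. The summits of real gained loci spanned up to 468 bp, so this checks the code and not its accuracy on these data. Alternatives included scores from 5 upwards, lists cut to one size, other match, absence and gene-end distances, seed order, autosomes, other gene classes, other clustering distances, surroundings at 10 to 100 kb, a replicate block, a comparison set with no absence distance and each library left out. Analyses used Python 3.11.15, numpy 2.4.6, pandas 2.3.3, scipy 1.17.1 and matplotlib 3.10.9.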

Additional observations from a re-analysis of the deposited data

Results flagged for a closer look

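Of 7 values examined over the 4 shHNRNPU libraries, 1 had a library far from the other 3. The median score of the gained loci was 4.90 in shHNRNPU #2 repeat 1, below 5.47 to 5.53 in the others. Chance sets a library apart in about 1 of 20 such groups. The median score of all summits was lowest in the same list, at 6.91 beside 7.34 to 8.43, and the median percentile of the gained loci there, 34.1, lay within the range of the other 3 libraries. The part of the list's general level in the lower median score was not tested.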

How the results depend on the processing

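Over 21 alternatives, 64 of 91 recomputed values stayed within the stated error, 26 moved and 1 turned direction. The count of 724 loci became 295 with a match distance of 100 bp, and 1052 to 2025 with a library left out (1124 and 1052 without shHNRNPU #1 repeats 1 and 2, 1267 and 1415 without shHNRNPU #2 repeats 1 and 2, 1991 and 2025 without shLUC repeats 1 and 2), since a rule over fewer libraries is looser. The share in gene bodies became 51.5% at 100 bp and 63.7% with genes of all classes, and was 47.1% to 49.3% with a library left out. The share near gene ends became 20.5% for scores of at least 5, 16.9% and 10.6% with absence distances of 500 and 2000 bp, and 7.73% within 500 bp of an end, and was 11.9% to 17.1% with a library left out. Its excess over loci of any other 4 libraries, a comparison added after the data were seen, was 5.43 percentage points, 8.67 for scores of at least 5, 4.03 to 7.31 with a library left out, and -7.75 when the other loci had no absence distance. The share with another gained locus within 100 kb became 7.65% for scores of at least 5 and 5.42% at 100 bp, and was 12.2% to 25.2% with a library left out, highest without shLUC repeats 1 (20.7%) and 2 (25.2%). Fewer or more loci change this share by construction. It was 0.552% at 10 kb and 51.2% at 1 Mb. The excess of surrounding summits with shHNRNPU, 6.88 per 10000, was 3.41 for scores of at least 5, 3.55 with lists of one size, 6.14 to 14.6 with a library left out, 14.6 without shLUC repeat 2 and 10.9 without shHNRNPU #2 repeat 1, and 57.8 at 10 to 100 kb. With the repeat number as a replicate block it was 6.88, as it must be with equal numbers, and the numbers are not stated to pair the libraries. Without read depth, a summit missing from a list cannot be told apart from one below its threshold, and with a median percentile near 35.0 most gained loci lie in the weaker part of each list.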
